A study of Mus musculus with 3 samples.

Results

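Genes of glycolysis and targets of hypoxia-inducible factor 1 (HIF-1) were examined in RAW264.7 cells, a mouse macrophage line, challenged with lipopolysaccharide (LPS), a component of the outer membrane of Gram-negative bacteria and the ligand of TLR4. The set holds 36 genes of the 36870 gene names on the array, namely glucose transporters, glycolytic enzymes, lactate genes, pyruvate dehydrogenase kinases, the HIF-1 alpha subunit with its prolyl hydroxylases, and further HIF-1 targets. They were taken by name, every probe of each gene included, and no measured value entered the rule. The members were, however, chosen with earlier results of these data known. All 36 were on the array, with 83 probes. The RNA came from 3 conditions, all of them RAW264.7 cells stimulated with LPS for 3 h: LPS alone, LOC1 + LPS and LOC3 + LPS. LOC1 and LOC3 are strains of Lactiplantibacillus plantarum that were given to the macrophages before LPS, for 12 h by the labels and for longer by the study's methods, and then washed away. The comparisons ask how the strains alter the LPS response of these genes. Each condition was measured on 1 array, so there is no SD between cultures, no test and no p-value for any difference given here. Unchallenged macrophages enter only through the log2 ratios to them that the authors deposited, and macrophages given a strain without LPS were not analysed here, so a difference present before LPS and a difference in the LPS response cannot be told apart.

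Glycolysis splits glucose to pyruvate in the cytosol. Hexokinases trap glucose as glucose 6-phosphate, phosphofructokinases commit it to breakdown, and the triose steps from aldolase to pyruvate kinase yield ATP. Lactate dehydrogenase then turns pyruvate to lactate, which leaves the cell through monocarboxylate transporters, while pyruvate dehydrogenase kinases hold pyruvate back from the mitochondria. Macrophages activated by LPS are known for a high glycolytic rate. HIF-1 is a transcription factor made of an alpha subunit (Hif1a) and a beta subunit (Arnt). Prolyl hydroxylases mark the alpha subunit for destruction when oxygen is present, so the protein is controlled largely apart from its mRNA, and arrays measure mRNA alone. HIF-1 binds the hypoxia response element, whose core reads ACGTG or GCGTG.

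The processed intensity of each spot was compared as log2 intensity less the 75th percentile of its array, called the level here. This percentile was an intensity of 367 for LPS, 332 for LOC1 and 334 for LOC3, so equal intensities stand for a slightly higher level with either strain. The brightest probe stood for each gene, and a difference was read against 2-fold, which is 1 on the log2 scale. Noise between spots was taken from 261 bright probes printed 10 times on each array and gave a technical SD of the log2 difference of 0.058 for LOC1 against LPS, 0.065 for LOC3 against LPS and 0.063 between the strains. Among 8 dim probes, those more than 1 log2 unit below the 75th percentile, it was 0.28, 0.34 and 0.32. Spread between cultures is not part of these values. All 11 macrophage markers on the array were well above background on all 3 arrays, at intensities of 1699 or more. Markers of T cells (2 of 4), B cells (1 of 3), epithelial cells (1 of 4) and fibroblasts (4 of 4) that exceeded background on the LPS array did so at intensities of 20.7 to 396, and their part in the results was not tested.

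Expression was detected for 35 of the 36 genes, each of them well above background on all 3 arrays. Egln3, a prolyl hydroxylase, was not well above background on any array and has no difference. Of the 35 genes, 33 had bright probes by the mean level of the 3 arrays, and only Pfkfb1 and Ldhb were dim. Intensities on the LPS array ran from 45.6 for Ldhb to 227990 for Aldoa. The levels on the 3 arrays lay close to each other for most genes, as the plot of levels by pathway step shows.

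**Figure D1:**
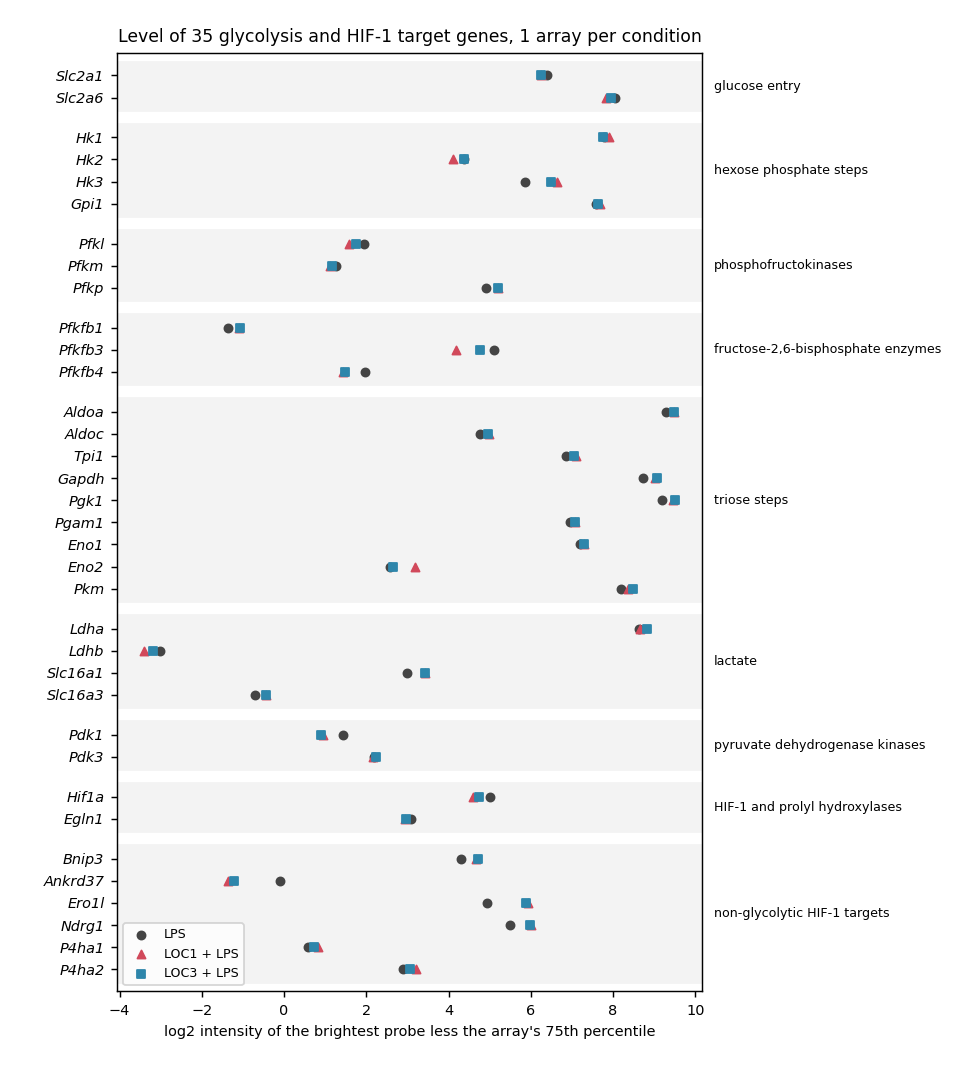
Level of the 35 detected genes on the LPS (circles), LOC1 + LPS (triangles) and LOC3 + LPS (squares) arrays, as log2 intensity of the brightest probe less the 75th percentile of the array, grouped by pathway step. There is 1 array per condition, so no error bar is drawn. Ankrd37 stands lower and Ero1l and Hk3 stand higher with both strains, and levels of different genes are not to be compared because probes differ in brightness.

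The promoters of these genes carry the core of the hypoxia response element often. In the RefSeq promoter table (GRCm38.p6), 35 of the 36 genes had an entry, Ero1l under its current symbol Ero1a, and Ndrg1 had none. The letters ACGTG and GCGTG were searched on both strands in the 250 bases before each gene start. They were found in 40 of 51 windows of these genes (78.4%) and in 38.6% of all 32851 windows in the table. Counted by gene, 32 of 35 (91.4%) had the letters before at least 1 start, against 41.5% of 27025 genes. The letters also occur inside other motifs, CACGTG holds them on both strands, and no binding was measured here. The set includes genes chosen as HIF-1 targets. Both cores hold the letters CG, and windows of like base composition were not compared. The cause of the higher share was therefore not tested. Promoters are shown for the gene lowest and the gene highest with the strains (Ankrd37 and Ero1l) and for LPS-responsive genes at the entry and commitment steps (Pfkfb3, Hk2 and Slc2a1). Each is the RefSeq sequence of the 250 bases before the start, read 5′ to 3′ along the gene, with the core letters of either strand in capitals. Ankrd37 is at chr8:45999851-46000100 on the minus strand, Ero1l at chr14:45318573-45318822 on the minus strand, Pfkfb3 (its outermost start) at chr2:11553930-11554179 on the minus strand, Hk2 at chr6:82774455-82774704 on the minus strand and Slc2a1 at chr4:119108495-119108744 on the plus strand.
Ankrd37: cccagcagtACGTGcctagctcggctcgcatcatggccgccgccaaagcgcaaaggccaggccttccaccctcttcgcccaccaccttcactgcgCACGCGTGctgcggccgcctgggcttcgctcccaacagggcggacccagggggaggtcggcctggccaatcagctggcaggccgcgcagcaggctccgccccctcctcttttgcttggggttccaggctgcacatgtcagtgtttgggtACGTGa
Ero1l: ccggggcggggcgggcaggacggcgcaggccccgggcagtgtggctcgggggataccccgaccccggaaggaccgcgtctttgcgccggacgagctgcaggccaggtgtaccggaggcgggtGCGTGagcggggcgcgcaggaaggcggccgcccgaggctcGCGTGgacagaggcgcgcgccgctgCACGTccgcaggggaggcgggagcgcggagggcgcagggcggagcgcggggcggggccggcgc
Pfkfb3: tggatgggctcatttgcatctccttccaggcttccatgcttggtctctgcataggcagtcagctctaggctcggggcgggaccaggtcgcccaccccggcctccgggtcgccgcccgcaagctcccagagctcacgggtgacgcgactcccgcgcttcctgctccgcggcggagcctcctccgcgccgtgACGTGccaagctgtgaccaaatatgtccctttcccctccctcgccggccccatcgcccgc
Hk2: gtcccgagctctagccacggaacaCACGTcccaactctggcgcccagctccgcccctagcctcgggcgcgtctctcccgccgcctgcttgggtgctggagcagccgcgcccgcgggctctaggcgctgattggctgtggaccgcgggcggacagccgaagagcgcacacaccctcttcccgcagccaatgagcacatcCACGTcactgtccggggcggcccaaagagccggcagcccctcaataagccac
Slc2a1: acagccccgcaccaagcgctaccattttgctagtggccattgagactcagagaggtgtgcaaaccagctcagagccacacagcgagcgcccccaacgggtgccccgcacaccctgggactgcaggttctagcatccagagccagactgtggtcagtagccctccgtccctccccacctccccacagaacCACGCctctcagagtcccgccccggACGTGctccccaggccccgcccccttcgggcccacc
The Ankrd37 window held 4 matches, the nearest 6 bases before the start. Ero1l held 3, Hk2 and Slc2a1 2 each, and the outermost start of Pfkfb3 1, which began 60 bases before the start. The window before the other Pfkfb3 start, not shown, held 3. Eno2, Gpi1 and Tpi1 held no match before any start. Matches were thus present before genes that stood higher with the strains and before genes that stood lower.

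With LPS alone, Pfkfb3, Slc2a6, Hk2, Hif1a, Eno2 and Slc2a1 were higher than in unchallenged macrophages, and Ankrd37, Egln1 and Slc16a3 were lower. The deposited log2 ratios of LPS to unchallenged macrophages list the brightest probe of 9 of the 35 genes, 6 higher and 3 lower. Over all 19311 genes well above background on the LPS array, 11.1% were listed higher and 7.19% lower. Of the set, 17.1% were listed higher, which is 6 genes, and 8.57% lower. The members were chosen with earlier results of these data known, so no excess is read from these shares. In bulk RNA, fewer cells carrying a transcript and less RNA per cell cannot be told apart.

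Pfkfb3, which makes fructose 2,6-bisphosphate, the strongest activator of phosphofructokinase, had a log2 ratio of 3.29, or 9.75-fold higher with LPS. Slc2a6, a transporter of the glucose transporter family, followed at 2.38 (5.20-fold). Hk2, the inducible hexokinase, was at 1.97 (3.91-fold). Hif1a itself was at 1.71 (3.28-fold), Eno2, an enolase, at 1.24 (2.36-fold) and Slc2a1, the glucose transporter GLUT1, at 1.01 (2.02-fold). Thus both glucose transporters, 1 of 4 hexose phosphate genes and 1 of 3 fructose-2,6-bisphosphate genes were listed higher, while 0 of 3 phosphofructokinases and 1 of 9 triose step genes were.

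On the lower side stood Ankrd37, an ankyrin repeat gene known as a HIF-1 target, with a log2 ratio of -3.23 (9.41-fold lower with LPS). Egln1, the main prolyl hydroxylase, was at -1.53 (2.89-fold lower), and Slc16a3, the lactate exporter MCT4, was at -1.32 (2.49-fold lower). The intensities implied for unchallenged macrophages were 3245 for Ankrd37, 8966 for Egln1 and 564 for Slc16a3, all above the lowest signal well above background. So within the HIF-1 targets the direction with LPS was not uniform, with Slc2a1, Hk2, Pfkfb3 and Eno2 higher and Ankrd37, Egln1 and Slc16a3 lower.

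The remaining 26 genes have no LPS value in the deposited table. For 4 of them another array was listed, and the LPS ratio could be rebuilt from the intensities: Ero1l at 0.98, Pfkp at 0.72, Hk3 at 0.47 and Ldhb at -0.80. All 4 lay under 2-fold with LPS, Ero1l by little. The other 22 genes, among them Aldoa, Gapdh, Pgk1, Pkm and Ldha, were listed for no array. A gene missing from the table is not shown to lie under 2-fold, because 16 of 149 probes that spanned over 4-fold among the 3 arrays have no row in it either.

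**Figure D2:**
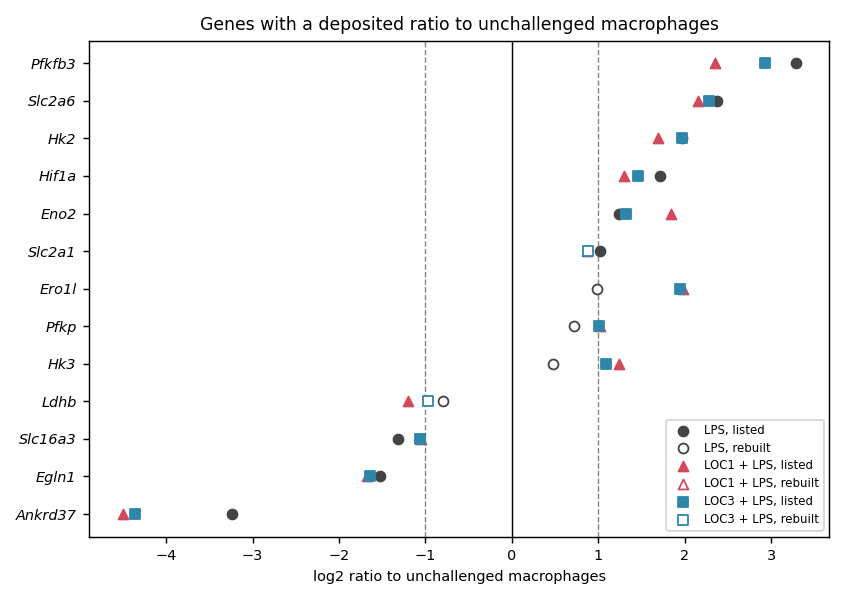
log2 ratio to unchallenged macrophages of the 13 genes listed for at least 1 array, with LPS (circles), LOC1 + LPS (triangles) and LOC3 + LPS (squares). Filled symbols are ratios as the authors deposited them, open symbols are rebuilt from the intensities, and dashed lines mark 2-fold; Pfkfb3 has the highest LPS ratio (3.29) and Ankrd37 the lowest (-3.23).

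Against this LPS background, few of the genes differed by 2-fold with either strain. With LOC1, Ero1l was past 2-fold higher and Ankrd37 past 2-fold lower, 1 of 35 in each direction, where 2.71% of 20018 genes were past 2-fold higher and 3.5% lower. With LOC3, 0 of 35 were past 2-fold higher and Ankrd37 alone was lower, against 3.19% higher and 2.92% lower of 19789 genes. These shares are near the background. At 1.5-fold, 3 genes were higher with LOC1 (Ero1l, Hk3 and Eno2) and 2 lower (Ankrd37 and Pfkfb3), where 8.75% of all genes were higher and 10.5% lower. With LOC3, Ero1l and Hk3 were past 1.5-fold higher and Ankrd37 lower, where 8.65% were higher and 8.71% lower.

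Most differences were small but larger than the spot noise. Beyond 2 technical SD, 17 genes were higher and 11 lower with LOC1, against 32.1% higher and 23.6% lower of all genes. With LOC3, 17 were higher and 7 lower, against 32.3% and 18.4%. The limit of 2 technical SD was 0.12 with LOC1 and 0.13 with LOC3 for bright probes, but 0.56 and 0.69 for dim ones. Of the 35 genes 33 were bright, and the set was not compared with genes of like brightness. A higher share in the set is therefore not read as a result. The median difference over the 35 genes was 0.13 on the log2 scale with LOC1 and 0.13 with LOC3, and over all genes it was 0.03 and 0.07. Both comparisons share the LPS array, so the 32 genes with the same sign in both are not independent evidence of it. The sign of 8 genes with LOC1 and 11 with LOC3 turned under another scaling or background setting, as given beside each gene.

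**Figure D3:**
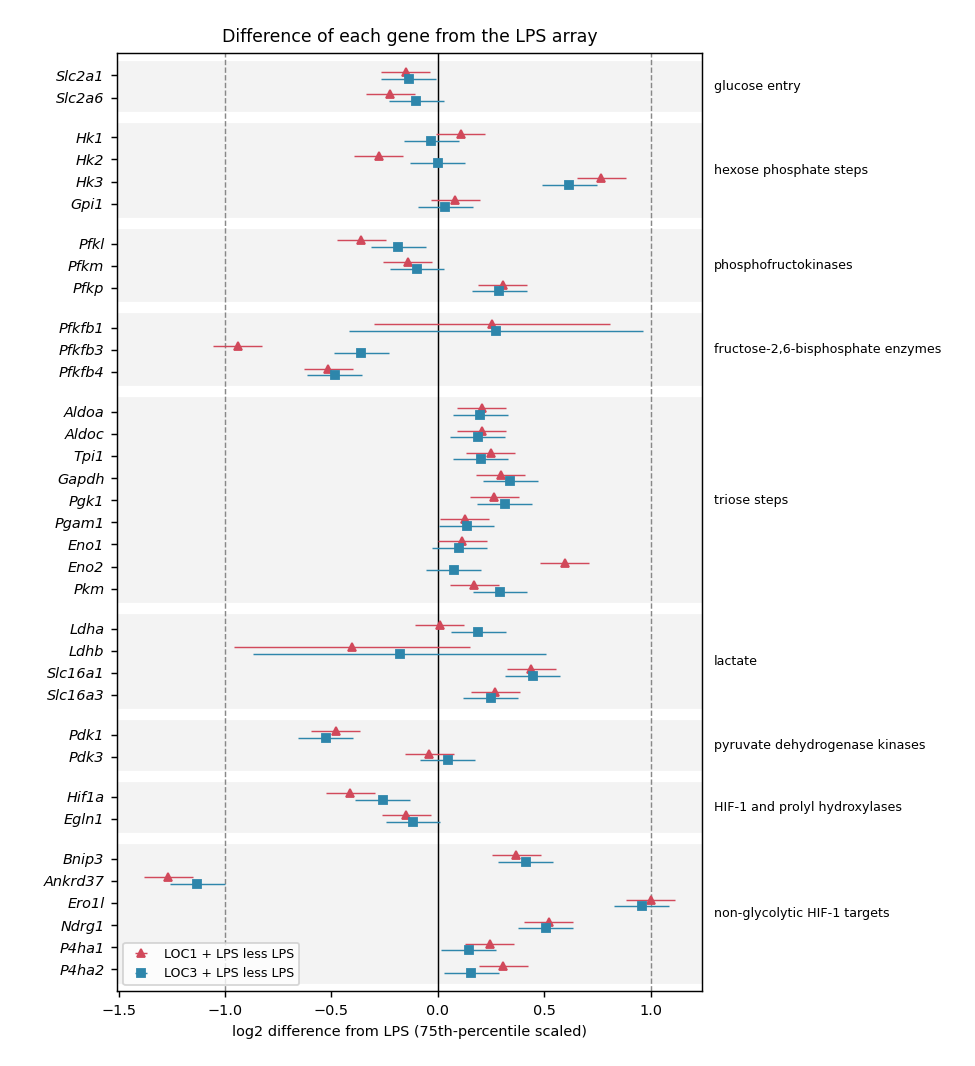
log2 difference from the LPS array of the 35 genes with LOC1 (triangles) and LOC3 (squares), grouped by pathway step. Bars are 2 technical SD from repeated spots and leave out the spread between cultures; dashed lines mark 2-fold. The 9 triose step genes lie above 0 with both strains, and Ankrd37 lies below -1.

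Slc2a1 was slightly lower with both strains, and the brightest probe of Slc2a6 with LOC1. Slc2a6 had intensities of 97420 with LPS alone, 75489 with LOC1 and 82579 with LOC3, for log2 differences of -0.22 and -0.10, the latter within 2 technical SD. Slc2a1 read 30880, 25149 and 25523, for differences of -0.15 and -0.14. Under median scaling Slc2a1 turned to 0.04 with LOC1 and 0.03 with LOC3, and Slc2a6 to 0.06 with LOC3. Relative to unchallenged macrophages, Slc2a6 kept a log2 ratio of 2.16 with LOC1 and 2.28 with LOC3.

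The hexokinases differed in direction. Hk3, the hexokinase of myeloid cells, had intensities of 21426 with LPS alone, 33010 with LOC1 and 29867 with LOC3, which is 1.70-fold and 1.53-fold higher. Both strain arrays stood above the LPS array, and its second probe gave log2 differences of 0.76 and 0.56. Hk2 read 7645, 5701 and 6950, a difference of -0.28 with LOC1 and 0.00 with LOC3. Hk1, the housekeeping hexokinase, differed by 0.11 and -0.03, within 2 technical SD, but a second bright Hk1 probe, at intensities of 4970, 6552 and 6450, gave log2 differences of 0.54 and 0.51, both beyond that limit. Gpi1, which isomerises glucose 6-phosphate, differed by 0.08 and 0.03, also within the spot noise. The sign of Hk1's brightest probe turned under quantile normalization with LOC1 and median scaling with LOC3, and those of Gpi1 with both strains and Hk2 with LOC3 turned under quantile normalization.

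Around phosphofructokinase, the isoforms differed in sign. Pfkp, the platelet isoform, had differences of 0.30 with LOC1 and 0.29 with LOC3, whereas Pfkl, the liver isoform, had -0.36 and -0.19. Pfkm, the muscle isoform, had -0.14 and -0.10, which turned under median scaling. Pfkfb3, the gene with the largest listed LPS ratio of the set, had intensities of 12714 with LPS alone, 5989 with LOC1 and 9000 with LOC3. That is 1.92-fold lower with LOC1 and 1.28-fold lower with LOC3. The LOC1 difference of -0.94 on the log2 scale went just past 2-fold under 3 other settings, the percentile over probes detected on every array (-1.01), quantile normalization (-1.05) and the mean of the detected probes (-1.04). Its probe lies at chr2:11393579-11393638 (mm9). Its dim second probe, at intensities of 254, 104 and 186, gave log2 differences of -1.15 and -0.31. Pfkfb4, an enzyme of the same family, was lower with both strains, by -0.51 and -0.48. Pfkfb1 was dim, and its differences of 0.26 and 0.27 were within 2 technical SD.

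On the scaled level, all 9 genes of the triose steps stood higher with both strains, by small amounts. The median over all genes was also above 0, at 0.03 with LOC1 and 0.07 with LOC3. The share of all genes above 0 was not counted. Unscaled intensities were not higher with the strains for Pgam1 (45460 with LPS alone, 44878 with LOC1 and 45363 with LOC3) and Eno1 (53600, 52438 and 52250). The differences ran from 0.11 to 0.60 with LOC1, median 0.21, and from 0.07 to 0.34 with LOC3, median 0.20. These medians depend on the setting. They were 0.12 and 0.04 under quantile normalization, beside 0.01 and 0.03 for all genes, and 0.39 and 0.36 under median scaling, beside 0.22 and 0.23. With the mean of the detected probes they were 0.09 and 0.07. Levels of Gapdh were 8.72 with LPS alone, 9.02 with LOC1 and 9.07 with LOC3, so both strain arrays stood above the LPS array. All 6 Gapdh probes agreed, with differences of 0.20 to 0.34 with LOC1 and 0.21 to 0.34 with LOC3. Pgk1, phosphoglycerate kinase, went from 9.20 to 9.47 and 9.52, and Aldoa, the main aldolase, from 9.28 to 9.48 on both strain arrays. Tpi1, triose phosphate isomerase, differed by 0.25 and 0.20, Aldoc by 0.21 and 0.19, and Pkm, pyruvate kinase, by 0.17 and 0.29. The smallest differences were those of Pgam1 (0.13 and 0.13) and Eno1 (0.11 and 0.10), the latter within 2 technical SD with both strains.

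Eno2 was the exception in size. Its intensities were 2193 with LPS alone, 2998 with LOC1 and 2099 with LOC3, so the LOC1 array alone stood out, with differences of 0.60 with LOC1 and 0.07 with LOC3. The direction of this group held for 9 of 9 genes with LOC1 under 4 of the 5 other scaling and background settings, and for 8 of 9 under quantile normalization, where Eno1 turned. With LOC3 it held for 9 of 9 under 3 settings, for 8 of 9 when the percentile was taken over probes detected on every array, where Eno2 turned, and for 7 of 9 under quantile normalization, where Eno1 and Pgam1 turned. With the mean of the detected probes in place of the brightest probe, 7 of 9 stood higher with each strain, and Eno1 (-0.32 and -0.32) and Pkm (-0.28 and -0.25) turned.

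Among the lactate genes, Slc16a1, the transporter MCT1, was higher by 0.44 with LOC1 and 0.45 with LOC3, from intensities of 2914, 3573 and 3607. Slc16a3 was higher by 0.27 and 0.25, at intensities of 227, 247 and 245. That leaves Slc16a3 at log2 ratios of -1.05 and -1.06 to unchallenged macrophages, still below them, against -1.32 with LPS alone. Ldha, the main subunit of lactate dehydrogenase in glycolytic cells, differed by 0.01 with LOC1 and 0.19 with LOC3, and its LOC1 value turned to as low as -0.12 under other settings. Its second probe read -0.09 and -0.11. Ldhb was dim, at intensities of 45.6, 31.1 and 36.6, with differences of -0.40 and -0.18 within 2 technical SD.

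Pdk1, a kinase that inactivates pyruvate dehydrogenase and a HIF-1 target, was lower by -0.48 with LOC1 and -0.53 with LOC3. Its intensities were 984, 638 and 620, both strain arrays below the LPS array. The brightest probe of Pdk3, of the same family, stayed within 2 technical SD, at -0.04 and 0.05, and its sign turned with the scaling. That probe has no RefSeq accession, and a second Pdk3 probe that has one was higher by 0.33 with both strains, beyond 2 technical SD.

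Hif1a had intensities of 11731 with LPS alone, 7976 with LOC1 and 8910 with LOC3, or 1.33-fold and 1.20-fold lower than with LPS. Both strain arrays stayed above the unchallenged level, at log2 ratios of 1.30 and 1.46. Egln1 differed by -0.15 and -0.12, which turned under median scaling, and its ratios to unchallenged macrophages were -1.68 and -1.64. Of the 6 genes listed higher with LPS, 5 stood lower with LOC1 and 4 with LOC3. The exception with LOC1 was Eno2, and with LOC3 Eno2 and Hk2 did not stand lower. Under median scaling Slc2a1 turned higher with both strains and Slc2a6 with LOC3, while Hk2 with LOC3 turned lower under other settings. The share standing lower among all genes listed higher with LPS was not counted. These differences and the LPS ratios contain the same LPS array with opposite signs, so a low or high reading of that array would move both.

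The HIF-1 targets outside glycolysis held the largest differences of the set, and not in 1 direction. Ankrd37, measured at chr8:47082404-47082463 (mm9), had intensities of 345 with LPS alone, 129 with LOC1 and 143 with LOC3. Both strain arrays lay well under the LPS array, 2.41-fold and 2.19-fold lower. Added to the lower signal with LPS, this put Ankrd37 at log2 ratios of -4.50 and -4.36 to unchallenged macrophages, or 22.7-fold and 20.6-fold below them. Under normexp background correction the difference from LPS was under 2-fold with both strains, at -0.98 and -0.87, and under median scaling it was -0.97 with LOC3.

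Ero1l, which makes disulfide bonds in the endoplasmic reticulum and is also driven by the unfolded protein response, had intensities of 11218, 20309 and 19803 at chr14:45902895-45902954 (mm9). The log2 difference was 1.001 with LOC1, at the threshold, and 0.96 with LOC3, just under it. Over the other settings it ranged from 0.91 to 1.19 with LOC1 and from 0.83 to 1.12 with LOC3, so its place past 2-fold rests on the setting. Against unchallenged macrophages Ero1l was 3.96-fold higher with LOC1 and 3.85-fold with LOC3. Ndrg1, a stress-responsive gene, was higher by 0.52 and 0.51, and Bnip3, a mitophagy receptor, by 0.37 and 0.41. The collagen prolyl hydroxylase subunits P4ha1 and P4ha2 were higher by 0.24 and 0.31 with LOC1 and by 0.14 and 0.16 with LOC3. In all, 5 of these 6 targets stood higher and 1 lower with both strains, under each of the 5 other scaling and background settings run.

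By the brightest probe, differences between LOC1 and LOC3 were under 1.5-fold for every gene of this set, and some exceeded the spot noise. The dim second probe of Pfkfb3 went further, at -0.83 (1.78-fold lower with LOC1). Past 2-fold there were 0 of 35 genes and past 1.5-fold 0 as well, where 2.63% and 5.79% of 19381 genes were. The largest differences of LOC1 less LOC3 were -0.58 for Pfkfb3, just under 1.5-fold, and 0.52 for Eno2, followed by -0.28 for Hk2. Beyond 2 technical SD there were 4 genes higher with LOC1 and 6 lower, 11.4% and 17.1% of the 35, and 25 were within it. Of all genes, 7.9% were higher and 11.4% lower by this measure, again without matching for brightness. The 4 higher were Eno2 (0.52), Hk3 (0.15), P4ha2 (0.15) and Hk1 (0.14). Beside Pfkfb3 and Hk2, the lower were Ldha (-0.18), Pfkl (-0.17), Hif1a (-0.15) and Ankrd37 (-0.14). Ankrd37 was counted as bright by its mean over the arrays, but its level was -1.36 with LOC1 and -1.22 with LOC3. By the limit for dim probes, 0.65, its difference between the strains is within the spot noise. A second bright probe read 0.03 for Hk1, 0.02 for Ldha and 0.00 for Pfkl, all within the spot noise, and 0.20 for Hk3, beyond it. Whether cultures of the same strain would differ as much is not known from 1 array each.

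Several genes had a dim or alternative probe that behaved unlike the brightest one. Over all probes of the set, 6 of 72 compared were past 2-fold lower with LOC1 and 5 of 73 with LOC3, where 4.03% and 3.54% of all probes were. Of these, the probes of Pkm, Pfkl and Eno1 are designed on Ensembl transcripts that the accession column does not pair with a RefSeq transcript, and lie upstream of the brightest probe of the gene. Their sequences are shown because the finding rests on what they detect. The Pkm probe (ENSMUST00000214571) is at chr9:59520400-59520459 on the plus strand, the Pfkl probe (ENSMUST00000220304) at chr10:77470357-77470416 on the minus strand, and the Eno1 probe (ENSMUST00000130632) at chr4:149616665-149616724 on the plus strand, all in mm9 and read 5′ to 3′ as on the array, in lower case throughout because no base is singled out.
Pkm: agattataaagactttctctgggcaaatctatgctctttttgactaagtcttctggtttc
Pfkl: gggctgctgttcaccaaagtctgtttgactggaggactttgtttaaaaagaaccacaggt
Eno1: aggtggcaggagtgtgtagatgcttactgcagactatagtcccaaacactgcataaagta
The Pkm probe had intensities of 423 with LPS alone, 120 with LOC1 and 119 with LOC3, or 3.18-fold and 3.23-fold lower, while the other 3 Pkm probes were higher by 0.17 to 0.21 with LOC1 and 0.19 to 0.29 with LOC3. The Pfkl probe read 771, 244 and 245, for log2 differences of -1.52 and -1.52, against -0.36 and -0.19 for the brightest. The Eno1 probe read 576, 222 and 245, for -1.23 and -1.10, against 0.11 and 0.10. Their LPS ratios, rebuilt from the intensities, were -0.37 for Pkm, -0.17 for Pfkl and -0.26 for Eno1, so with LPS alone these signals were under 2-fold from the unchallenged ones. The probes of Pkm thus disagreed in direction beyond 2 technical SD with both strains, as did those of Pfkp, and those of Eno1 with LOC1. For Pfkp, 2 probes with a RefSeq accession were higher (0.27 and 0.30 with LOC1), while 3 without were lower (-0.23 to -0.83), so the mean of its probes was lower, at -0.16 with LOC1 and -0.22 with LOC3.

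Hif1a had such a probe too. It lies on the opposite strand to the gene, at chr12:75027538-75027597 (mm9), and read 67.3 with LPS, 30.2 with LOC1 and 19.0 with LOC3, the last not well above background. The difference with LOC1 was 2.01-fold. With LOC3 the probe was at least 3.08-fold lower. With LPS its deposited log2 ratio to unchallenged macrophages was 1.99. It is named Hif1a in the file, but reads from a transcript antisense to it are not Hif1a mRNA.

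The split by accession, made after the values were seen, extended beyond these genes. Of 15 compared probes of the set without a RefSeq accession, 6 (40.0%) were past 1.5-fold lower with LOC1 and 5 (33.3%) with LOC3, and 0 were higher with either. Of the probes with one, 4 of 57 (7.02%) and 1 of 58 (1.72%) were lower. Among all genes that had both kinds of probe compared, 30.1% of 3185 probes without a RefSeq accession were past 1.5-fold lower with LOC1 and 6.09% higher, while of 4420 probes with one 6.45% were lower and 7.71% higher. With LOC3 the shares lower were 29.3% of 3143 and 5.57% of 4345. The median log2 difference of the probes without a RefSeq accession was -0.29 with LOC1 and -0.21 with LOC3, and of those with one 0.09 and 0.09. The pattern is therefore shared by the array at large and is not particular to glycolysis. Probes without a RefSeq accession were also dimmer, with a median intensity of 81.9 on the LPS array against 781 for those with one. Among bright probes alone, over 730 genes with both kinds, 18.9% of 787 probes without a RefSeq accession and 4.32% of 1134 with one were past 1.5-fold lower with LOC1, and 21.6% and 3.35% with LOC3.

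**Figure D4:**
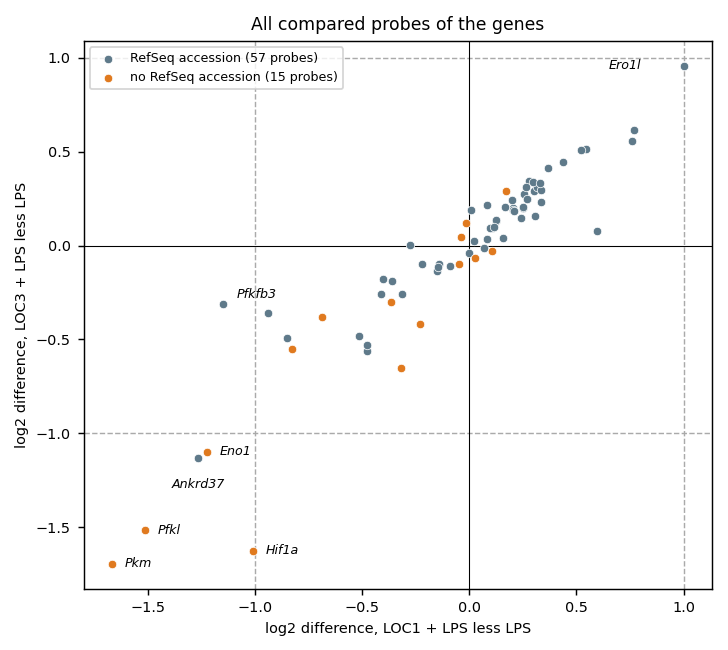
log2 difference from LPS with LOC1 (horizontal) and LOC3 (vertical) of the 72 probes of the genes compared with both strains, coloured by whether the accession column names a RefSeq transcript. Both axes share the LPS array, so points along the diagonal are not independent. Single probes of Pkm, Pfkl, Eno1 and Hif1a without a RefSeq accession and that of Ankrd37 are the only ones past 2-fold lower with LOC3, and dashed lines mark 2-fold.

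Other genes around the pathway were counted as lists. With each strain, 0 of 16 compared paralogs and neighbours of the glycolytic genes, 0 of 11 genes of pyruvate entry to mitochondria and 0 of 9 pentose phosphate genes were past 2-fold. Lists this short can hold 0 at the shares of all genes given above. Their median differences with LOC1 were -0.07, 0.10 and 0.04. With LPS, 0 genes of these lists were listed higher, and 3 of 15, 1 of 11 and 1 of 9 detected genes were listed lower, beside 7.19% of all genes. Among 7 genes that control HIF, 2 were past 2-fold higher with LOC1 and 1 with LOC3, and 0 were lower. Cited2, which competes with HIF-1 for its coactivators, had intensities of 4939 with LPS alone, 10583 with LOC1 and 10414 with LOC3, so both strain arrays stood clearly above LPS, by 2.37-fold and 2.32-fold. Arnt2, a relative of the beta subunit, was dim, at 22.3, 40.8 and 26.8, and its difference of 1.02 with LOC1 stands beside 0.56 for 2 technical SD of dim probes. Arnt itself differed by 0.00 and 0.22.

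Of 19 compared further HIF-1 targets, 1 was past 2-fold higher with each strain and 0 lower. This was Vegfa, the vascular growth factor, which was not well above background with LPS. Its intensities were 19.0, 39.7 and 34.6, which makes it at least 2.31-fold higher for LOC1 and at least 2.01-fold for LOC3. The median of these targets was 0.20 with LOC1 and 0.13 with LOC3.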

How the data were processed

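RNA of RAW264.7 macrophages was measured on 1-colour Agilent SurePrint G3 mouse arrays, with 1 array for each condition. Spot intensity was deposited by the authors as Feature Extraction gives it, background-subtracted and not normalized between arrays. The log2 ratios to unchallenged macrophages were deposited by the authors after GeneSpring, with values under 2-fold blank. Differences between their columns matched the intensities scaled here to within 0.01, for the 5507 to 7201 probes listed in both columns of a pair. The match came after a constant shift of at most 0.003. It fixed the scale and direction of the ratios and the centring of the arrays against each other. The unchallenged reference cancels in such differences, so its own level was not checked. The medians of the listed ratios were 1.05 with LPS, -1.03 with LOC1 and -1.04 with LOC3.

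Outlier spots (118 to 135 per array) were left out, spots of a probe were averaged, and log2 intensity less the 75th percentile over 56605 probes was compared. Signals not well above background that lay under the lowest signal that was (intensities of 14.5 to 19.8) were raised to it. This gives bounds written as at least N-fold. Signals well above background were found for 47.8% to 51.9% of probes, and 0 spots were saturated. The number of arrays limits the precision. The t-test of the methods needs more than 1 array per condition and was not run. The steps were tested on simulated data. Python 3.11.15, pandas 2.3.3 and numpy 2.4.6 were used, with R 4.3.3 and limma 3.58.1 for normexp (offset 50). Probes are placed on mm9 as in the file headers, and promoters are from RefSeq.

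All 36 genes are accounted for. The LPS ratios of the further HIF-1 targets are not reported here. Given in full are those past 2-fold, with a listed LPS ratio, or whose probes disagreed. The members and lists were chosen with earlier results of these data known. The split of probes by accession and the 75th percentile over all spots were chosen after seeing the data. Alternatives were other scalings, background correction, probes, filters, outlier spots, thresholds and the deposited ratios.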

Additional observations from a re-analysis of the deposited data

How the results depend on the processing

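Which of the 35 genes were past 2-fold depends on the setting. Under the percentile over probes detected on every array and under quantile normalization, Pfkfb3 took the place of Ero1l with LOC1, and under median scaling Ero1l took that of Ankrd37 with LOC3. With the mean of the detected probes, Pfkfb3 was added with LOC1. With LOC1 the count was 2 genes, and it was 0 under normexp background correction, 1 with the 75th percentile over all spots, 1 from the deposited ratios (8 genes listed in both columns) and 5 at a 1.5-fold threshold. With LOC3 the count was 1, and it was 0 under normexp and 3 at 1.5-fold. The median difference of the set, 0.13 with both strains, became 0.31 with LOC1 and 0.30 with LOC3 under median scaling, which moved the median of all genes by 0.19 and 0.16. It became 0.0526 and 0.0533 when the percentile was taken over probes detected on every array, 0.00207 and 0.00721 under quantile normalization, 0.0440 and 0.0394 with the mean of the detected probes, and -0.25 and -0.11 over the 8 genes in the deposited ratios, which hold fewer genes. Relative to all genes, the median difference of the set is thus near 0 under quantile normalization. The count of genes listed with LPS was 9 under the raised floor, and 13 genes have an LPS value once the 4 rebuilt ones, all under 2-fold, are included. No paired analysis was possible because each condition has 1 array, and for the same reason no replicate could be left out.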
